A study of Mus musculus with 8 samples.

Results

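The genes of the immunoproteasome and of peptide loading onto major histocompatibility complex (MHC) class I were examined after endotoxemia in mice. The members were 10 genes, namely the inducible catalytic subunits *Psmb8*, *Psmb9* and *Psmb10*, the proteasome activator subunits *Psme1* and *Psme2*, the transporter subunits *Tap1* and *Tap2*, tapasin (*Tapbp*), beta-2 microglobulin (*B2m*) and the class I transactivator *Nlrc5*. Every probe of the array that carries one of these names was taken, which gave 15 of 56605 probes for 9 of the 10 genes. No probe carried the name *Psme2*. Of the 15 probes, 13 were well above background on at least 4 of the 8 arrays and entered the test over 33819 probes.

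RNA of 4 Co mice and 4 Pg mice was hybridized to Agilent one-color arrays, 1 array per mouse. All mice were C57BL/6J with no engineered allele named, male by the methods of the study and 12 weeks old. Co mice had received 100 μL of saline intravenously, and Pg mice the same volume with sonicated *P. gingivalis*, a gram-negative bacterium of periodontal disease, at 100000000 CFU in the methods and 108 CFU as printed in the labels. Tissue labelled brown adipose tissue (BAT) was taken 18 h later, so the comparison asked how these genes stood in that tissue after a single exposure to bacterial material.

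The proteasome cuts proteins of the cytosol into peptides. When cells are exposed to interferon, 3 inducible catalytic subunits take the place of the constitutive ones in newly assembled particles, and the activator ring of PSME1 and PSME2 is made in larger amounts. The transporter of TAP1 and TAP2 moves the peptides into the endoplasmic reticulum, where tapasin holds an empty class I molecule, a heavy chain bound to beta-2 microglobulin, next to the transporter until a peptide is bound. NLRC5 is the transcriptional coactivator that acts on the promoters of many of these genes, and immune cells express most of them at higher levels than muscle or fat cells.

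In the GRCm38.p6 assembly, 5 of the members lie in the MHC region of chromosome 17. *Tapbp* spans chr17:33919478-33929290, *Psmb9* chr17:34182030-34187330, *Tap1* chr17:34187556-34197225, *Psmb8* chr17:34198195-34201454 and *Tap2* chr17:34204479-34216321. *Psmb10* lies at chr8:105935728-105938392, *Nlrc5* at chr8:94434335-94527272, *Psme1* at chr14:55578494-55581527, *Psme2* at chr14:55587440-55591101 and *B2m* at chr2:122147687-122153082. *Psmb9* and *Tap1* are transcribed away from each other, and the 225 bases between their starts serve both. That stretch and the 250 bases before the starts of *B2m* and *Psmb8* are shown because these genes share inducers, and because they hold motifs of those inducers. They are RefSeq sequences of GRCm38.p6, read on the plus strand, which is the strand of *Tap1*, *B2m* and *Psmb8*. Capitals mark the interferon-stimulated response element (ISRE), a match to the NF-kB motif and the core of the cyclic AMP response element (CRE) in *B2m*, the gamma-activated site (GAS) of interferon-responsive genes in *Psmb8*, and the CRE core between *Psmb9* and *Tap1*.
between *Psmb9* and *Tap1*, chr17:34187331-34187555: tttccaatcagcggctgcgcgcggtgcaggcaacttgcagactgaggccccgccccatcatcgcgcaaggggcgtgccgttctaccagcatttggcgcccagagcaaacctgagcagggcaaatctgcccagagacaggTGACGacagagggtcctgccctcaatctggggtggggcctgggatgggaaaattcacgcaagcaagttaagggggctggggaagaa
*B2m*, chr2:122147437-122147686: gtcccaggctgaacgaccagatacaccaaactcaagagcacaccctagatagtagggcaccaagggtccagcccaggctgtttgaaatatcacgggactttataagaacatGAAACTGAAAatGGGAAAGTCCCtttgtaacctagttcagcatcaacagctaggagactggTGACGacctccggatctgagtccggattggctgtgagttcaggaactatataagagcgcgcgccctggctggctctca
*Psmb8*, chr17:34197945-34198194: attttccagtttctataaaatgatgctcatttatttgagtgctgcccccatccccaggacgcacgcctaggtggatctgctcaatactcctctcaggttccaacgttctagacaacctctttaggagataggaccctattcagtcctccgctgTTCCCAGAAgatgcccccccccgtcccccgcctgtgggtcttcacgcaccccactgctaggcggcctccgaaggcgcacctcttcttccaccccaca

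The motifs were searched on both strands in the windows of 300 bases around the starts of 32851 RefSeq transcripts. The GAS was read as TTCNNNGAA and was in 8.3% of the windows, the ISRE as 2 copies of GAAA with any 2 bases between them in 3.44%, the NF-kB motif as GGGA, any 4 bases and CC in 20.7%, and the CRE core as TGACG in 20.8%. *B2m* held the ISRE, at position -139 from the transcription start, and next to it 2 overlapping NF-kB matches. *Psme1* held an ISRE and *Psmb8* the GAS. One CRE core stood in the windows of both *Psmb9* and *Tap1*, and *Psme2* also had it. The windows of *Psmb10* and *Tapbp* held none of these letters, and *Tap2* and *Nlrc5* were not in the table. A match says only that the letters are there.

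The readout of the inducible catalytic subunits rested on 1 tested probe each. These probes are 60 bases long and are shown with the positions that the array design gives in mm9, another build than the one above. The *Psmb8* and *Psmb9* probes lie in coding sequence, and the *Psmb10* probe runs past its end, with the stop codon in capitals.
*Psmb8* probe A_51_P345367, chr17:34337771-34337830, plus strand: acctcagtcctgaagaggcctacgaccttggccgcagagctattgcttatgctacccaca
*Psmb9* probe A_51_P369803, chr17:34319174-34319233, minus strand: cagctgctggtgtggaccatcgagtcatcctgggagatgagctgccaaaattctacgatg
*Psmb10* probe A_52_P570266, chr8:108459677-108459736, minus strand: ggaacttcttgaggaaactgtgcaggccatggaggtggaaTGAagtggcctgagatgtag

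One slide held all 8 arrays and was scanned once. Row 1 of the slide was Co and row 2 was Pg, so the place on the slide and the injection cannot be told apart. A Co array had 34760 to 35831 probes well above background, and a Pg array 31132 to 34064. The marker that defines BAT was not read above background. *Ucp1*, which encodes the uncoupling protein of brown adipocytes, and *Elovl3* were well above background on no array, although 10 other markers of brown adipocytes were above it on all 8. Whether those probes detect their transcripts was not tested. The summed signal of 12 skeletal muscle markers was 2979610 to 3178150 in Co mice and 2928350 to 3194870 in Pg mice, and all 12 were well above background on every array. These sums rest on probes at the top of the quantile-normalized scale, where arrays share the same few values, so they could hardly differ. *Tnnt3* read 18.81 to 18.84 over the 8 arrays, while *Myh4* read 11.38 to 17.07. In a bulk tissue, fewer cells of a type and less RNA per cell cannot be told apart.

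No member passed the threshold of the study, a q under 0.1 with a fold change above 1.5. The count was 0 of 13 probes, beside a background of 1.61% of all tested probes and of 0.313% called higher in Pg mice. At a q under 0.1 alone the count was also 0 (background 7.82% in either direction and 1.82% higher in Pg mice). An unadjusted p under 0.05 in limma was given to 2 probes, *Psmb8* and *Psmb10*, both higher (background 22.8% in either direction and 6.86% higher in Pg mice). The fitted values leaned upward without passing the test. Of the 13 probes, 11 had a positive log2 fold change, which is 84.6% beside 42.3% of all tested probes, and the median was 0.25 beside -0.04 over all probes. A log2 fold change above 0.2 was fitted for 9 of the 13 probes, beside 13.1% of all probes. These shares describe the list and are no test of it. Log2 signals below are those of quantile-normalized arrays, and log2 fold changes are Pg minus Co with the standard error (SE) of limma and n = 4 per group.

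*Psmb10* encodes the inducible subunit that replaces PSMB7, and it was the member with the lowest q. Its log2 signal was 12.17, 12.22, 12.27 and 12.32 in Co 1 to Co 4 and 12.49, 12.53, 12.35 and 12.48 in Pg 1 to Pg 4. Every Pg mouse stood above every Co mouse, and no other tested member probe separated the groups (1 of 13 probes, beside 15.8% of all probes in either direction and 4.83% higher in Pg mice). The log2 fold change was 0.21 (SE 0.06), a fold change of 1.16 with a 95% interval of 1.05 to 1.28, and the q of limma was 0.109. The interval lies whole below the fold threshold of 1.5.

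*Psmb8* encodes the inducible subunit that replaces PSMB5. Its probe read 8.94, 8.94, 9.08 and 9.25 in the Co mice and 9.40, 9.79, 9.02 and 9.62 in the Pg mice, in the order of their numbers. Pg 1, Pg 2 and Pg 4 were above all Co mice, and Pg 3 fell inside their range. The log2 fold change was 0.40 (SE 0.17, limma q = 0.199), and the 95% interval of the fold change ran from 1.01 to 1.73. With 1 array left out the log2 fold change lay between 0.29 (without Pg 2, q = 0.352) and 0.55 (without Pg 3, q = 0.0771), under the fold threshold in each case, and the unadjusted p of limma was under 0.05 only without Co 4 or Pg 3.

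*Psmb9* encodes the inducible subunit that replaces PSMB6. Signals of 8.46, 8.47, 8.69 and 9.08 in Co 1 to Co 4 stood against 8.83, 9.70, 8.88 and 9.25 in Pg 1 to Pg 4. The groups overlapped through Co 4, which was above Pg 1 and Pg 3. The log2 fold change was 0.49 (SE 0.22, limma q = 0.238), with a 95% interval of -0.02 to 1.00. With 1 array left out it lay between 0.31 (without Pg 2, q = 0.392) and 0.62 (without Co 4, q = 0.183), past the fold threshold without Co 4 or Pg 1 but in no case at q under 0.1. A second *Psmb9* probe, A_55_P2038983, was above background on no array and gives no level.

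**Figure D1:**
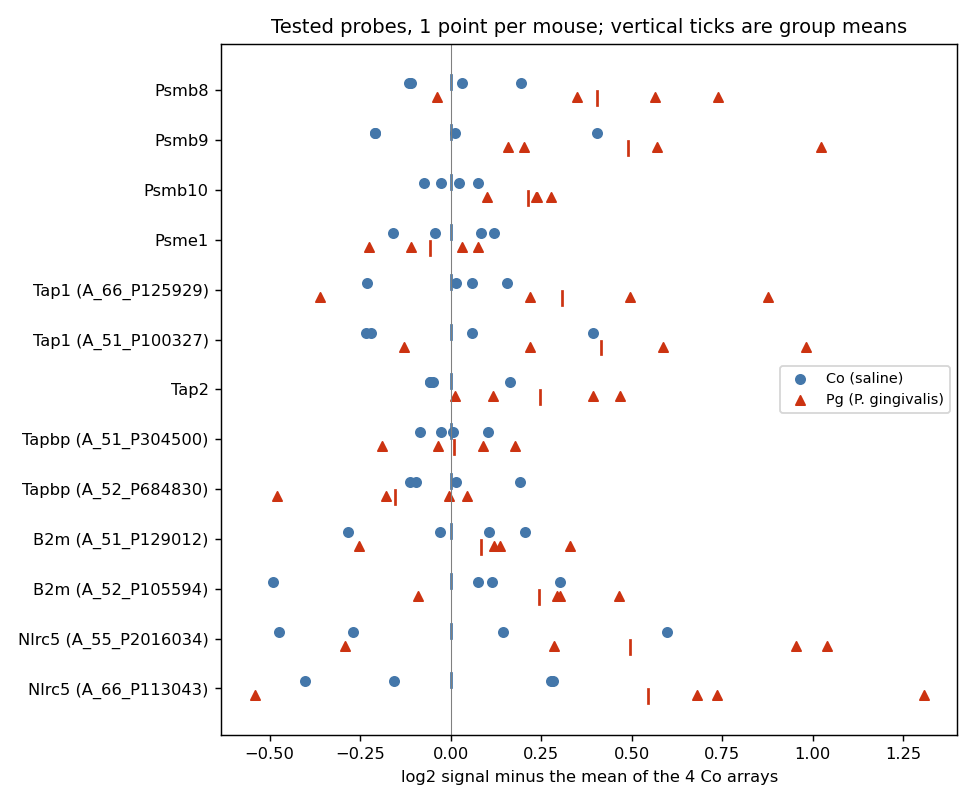
Log2 signal of the 13 tested member probes, 1 row per probe, as the difference from the mean of the 4 Co arrays (horizontal axis, log2). Circles are Co mice, triangles are Pg mice and vertical ticks are group means. The 4 Pg mice lie apart from the 4 Co mice for *Psmb10*, at 12.35 to 12.53 against 12.17 to 12.32, and for no other probe.

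Since the inducible subunits take the places of constitutive ones, each was also set against its partner on the same array. The partners are *Psmb5*, *Psmb6* and *Psmb7*, which encode the catalytic subunits of the standard proteasome. Their log2 fold changes were 0.11 (SE 0.06, limma q = 0.333), 0.07 (SE 0.05, q = 0.426) and -0.09 (SE 0.07, q = 0.502). *Psmb6* had another probe, A_52_P199375, which was higher in every Pg mouse (13.99 to 14.14) than in any Co mouse (13.70 to 13.87) and passed the q threshold without the fold threshold (0.26, SE 0.07, q = 0.0808). The brighter *Psmb6* probe also separated the groups, at 15.45 to 15.54 in Pg mice and 15.39 to 15.44 in Co mice. Of all tested probes, 15.8% separated the groups in either direction and 4.83% with Pg mice higher. The pair below uses the brighter *Psmb6* probe, and the other one was tried as an alternative after seeing the data.

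Only the change of the difference within an array is read here, because levels of different probes cannot be compared. Relative to the Co mean, the difference *Psmb10* minus *Psmb7* was -0.00, -0.04, 0.00 and 0.04 in the Co mice and 0.47, 0.40, 0.10 and 0.23 in the Pg mice. All Pg mice were above all Co mice. The difference was 0.30 higher (SE 0.09) in Pg mice on the log2 scale, with a two-sided exact permutation p of 0.0286, the smallest that 70 splits can give. After Benjamini-Hochberg adjustment over the 3 pairs this was 0.0857. A pair that reaches the smallest p alone cannot pass 0.05 after this adjustment, so the adjusted value decides nothing at 0.05.

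The difference *Psmb9* minus *Psmb6* was -0.23, -0.23, 0.04 and 0.42 in the Co mice and 0.12, 0.89, 0.16 and 0.49 in the Pg mice, a change of 0.42 (SE 0.24, exact permutation p = 0.114, adjusted 0.171). *Psmb8* minus *Psmb5* was -0.20, -0.17, 0.06 and 0.32 against 0.24, 0.58, -0.18 and 0.52, a change of 0.29 (SE 0.21, exact permutation p = 0.257, adjusted 0.257). With the other *Psmb6* probe as the partner, the change of *Psmb9* minus *Psmb6* was 0.23 (SE 0.25, exact permutation p = 0.343, adjusted 0.343). The groups overlapped for both pairs. For *Psmb8*, Pg 1 and Pg 3 lay within the Co range. With 1 array left out, the change lay between 0.26 (without Pg 2) and 0.56 (without Co 4) for *Psmb9* minus *Psmb6*, between 0.19 (without Pg 2) and 0.45 (without Pg 3) for *Psmb8* minus *Psmb5*, and between 0.24 (without Pg 1) and 0.37 (without Pg 3) for *Psmb10* minus *Psmb7*.

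**Figure D2:**
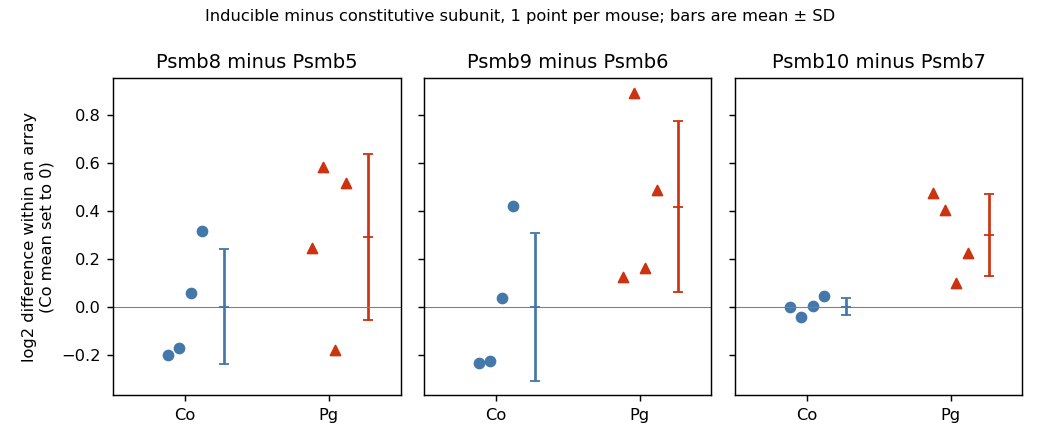
Difference in log2 signal between each inducible subunit and its constitutive partner on the same array, with the mean of the Co mice set to 0 (vertical axis, log2). Points are mice and bars are the mean and SD of 4 mice. Co and Pg mice are apart for *Psmb10* minus *Psmb7*, with a change of 0.30, and overlap in the other panels.

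The activator subunits had fitted values near 0. *Psme1*, which encodes the alpha subunit of the interferon-inducible activator ring, read 13.00, 13.12, 13.25 and 13.28 in the Co mice and 13.06, 12.94, 13.20 and 13.24 in the Pg mice. The groups lay over each other, with a log2 fold change of -0.06 (SE 0.09, limma q = 0.752) and a 95% interval of -0.27 to 0.16. The sign turned under other settings, to 0.01 under normexp on the mean signal, 0.01 with the median signal and 0.01 in the values of the authors' table.

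*Psme2* encodes the beta subunit of that ring. It has a copy, *Psme2b*, on chromosome 11, and 2 probes named *Psme2b* list the accessions of both genes, so the genes cannot be told apart there and these probes were not counted as members. Probe A_55_P1996862 read 13.55 to 13.61 in Co mice and 13.56 to 13.70 in Pg mice, and its log2 fold change was 0.06 (SE 0.05, limma q = 0.555). Probe A_55_P2025611 read 11.40 to 11.49 against 11.43 to 11.53, with a log2 fold change of 0.05 (SE 0.05, limma q = 0.592). The 95% intervals reached no higher than 0.18 and 0.17.

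*Tap1* and *Tap2* encode the subunits of the peptide transporter, and their probes leaned upward with wide errors. *Tap1* probe A_66_P125929 read 6.95, 7.20, 7.24 and 7.34 in the Co mice and 7.40, 8.06, 6.82 and 7.68 in the Pg mice. Pg 1, Pg 2 and Pg 4 were above all Co mice and Pg 3 was below them all. Its log2 fold change was 0.31 (SE 0.24, limma q = 0.488), and it was 0.12 without Pg 2 and 0.53 without Pg 3 (q = 0.784 and 0.134). The dimmer *Tap1* probe, A_51_P100327, read 4.03, 4.31, 4.65 and 4.02 against 4.47, 5.23, 4.12 and 4.84, a log2 fold change of 0.41 (SE 0.25, q = 0.362). It was well above background on all 4 Co arrays and on 2 Pg arrays, and the value was 0.06 with normexp on the mean signal, 0.09 with the median signal and 0.23 without Pg 2. Both *Tap1* probes had Pg 2 highest and Pg 3 lowest among the Pg mice.

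*Tap2* probe A_55_P2017645 read 10.24, 10.24, 10.25 and 10.46 in the Co mice and 10.31, 10.77, 10.42 and 10.69 in the Pg mice. Co 4 stood apart from the other Co mice and above Pg 1 and Pg 3, which made the groups overlap. The log2 fold change was 0.25 (SE 0.12, limma q = 0.248). The other *Tap2* probe, A_51_P240654, was well above background on 1 Co array and no Pg array and was not tested.

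Tapasin bridges the transporter and the class I molecule. *Tapbp* probe A_51_P304500 read 12.01, 11.96, 12.05 and 12.14 in the Co mice and 12.00, 12.22, 11.85 and 12.13 in the Pg mice, a log2 fold change of 0.01 (SE 0.09, limma q = 0.957) that turned to -0.02 when arrays were scaled to the 75th percentile. The other tested probe, A_52_P684830, read 7.64, 7.77, 7.95 and 7.66 against 7.28, 7.75, 7.80 and 7.58, a log2 fold change of -0.15 (SE 0.13, q = 0.513) that was -0.05 without Pg 1 and -0.22 without Pg 3. The groups overlapped on both probes. The 95% intervals, from -0.20 to 0.22 and from -0.45 to 0.14, stayed inside the fold threshold of 1.5 in both directions.

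*B2m* encodes the light chain that every class I molecule carries. Its bright probe, A_51_P129012, read 13.04, 13.30, 13.43 and 13.53 in the Co mice and 13.45, 13.46, 13.07 and 13.66 in the Pg mice. The Pg mice spread over nearly the whole Co range, and the log2 fold change was 0.08 (SE 0.15, limma q = 0.772), turning to -0.01 without Co 1. The dim probe A_52_P105594 read 6.06, 6.66, 6.62 and 6.85 against 7.02, 6.46, 6.84 and 6.85, a log2 fold change of 0.24 (SE 0.19, q = 0.477) that was 0.08 without Co 1 and 0.35 without Pg 2. Here Pg 2 was the lowest Pg mouse, unlike on most member probes.

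*Nlrc5*, the coactivator, had fitted values with wide errors. Probe A_55_P2016034 read 5.19, 5.39, 6.26 and 5.81 in the Co mice and 5.95, 6.70, 5.37 and 6.62 in the Pg mice, a log2 fold change of 0.50 (SE 0.35, limma q = 0.431). Probe A_66_P113043 read 3.64, 3.39, 4.07 and 4.08 against 3.25, 5.10, 4.53 and 4.47, a log2 fold change of 0.55 (SE 0.37, q = 0.423), and was well above background on 2 arrays of each group. With 1 array left out the first ranged from 0.32 (without Pg 2) to 0.76 (without Pg 3) and the second from 0.29 (without Pg 2) to 0.91 (without Pg 1). With normexp on the mean signal they were 0.26 and 0.15. Neither probe separated the groups. The 95% intervals ran from -0.30 to 1.30 and from -0.32 to 1.41, so a rise past the fold threshold of 1.5 was within them and a fall past it was not.

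**Figure D3:**
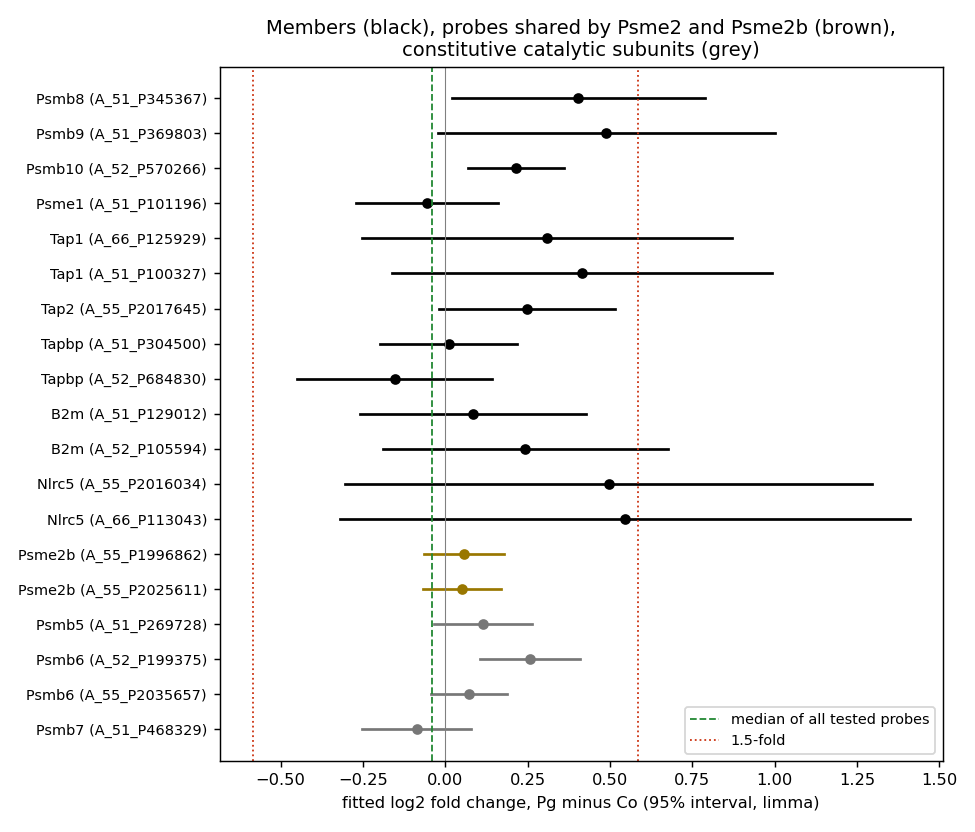
Fitted log2 fold change, Pg minus Co, with the 95% interval of limma (horizontal axis) for the 13 tested member probes (black), the 2 probes shared by *Psme2* and *Psme2b* (brown) and the constitutive catalytic subunits (grey), n = 4 per group. The dashed line is the median of all tested probes (-0.04) and the dotted lines are a fold change of 1.5. The intervals of *Psmb8* and *Psmb10* lie above 0, and those of *Psmb8*, *Psmb9*, *B2m* A_52_P105594 and both probes of *Tap1* and of *Nlrc5* reach past the upper threshold.

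The member probes varied together from mouse to mouse. Pg 2 was the highest Pg array for 9 of the 13 probes (69.2%, beside 23.3% of all tested probes) and Pg 3 the lowest for 7 (53.8%, beside 23.7%). Among the Co arrays, Co 4 was the highest for 10 (76.9%, beside 26.5%) and Co 1 the lowest for 9 (69.2%, beside 26.6%). The median difference of the 13 probes from their Co mean was -0.16, -0.04, 0.07 and 0.16 in Co 1 to Co 4 and 0.16, 0.47, 0.03 and 0.39 in Pg 1 to Pg 4. Pg 2 and Pg 4 were therefore the high mice, while Pg 1 was close to Co 4 and Pg 3 lay within the Co range. The SD was larger in the Pg mice for 12 of the 13 probes, beside 53.8% of all tested probes, and the exception was *B2m* A_52_P105594.

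**Figure D4:**
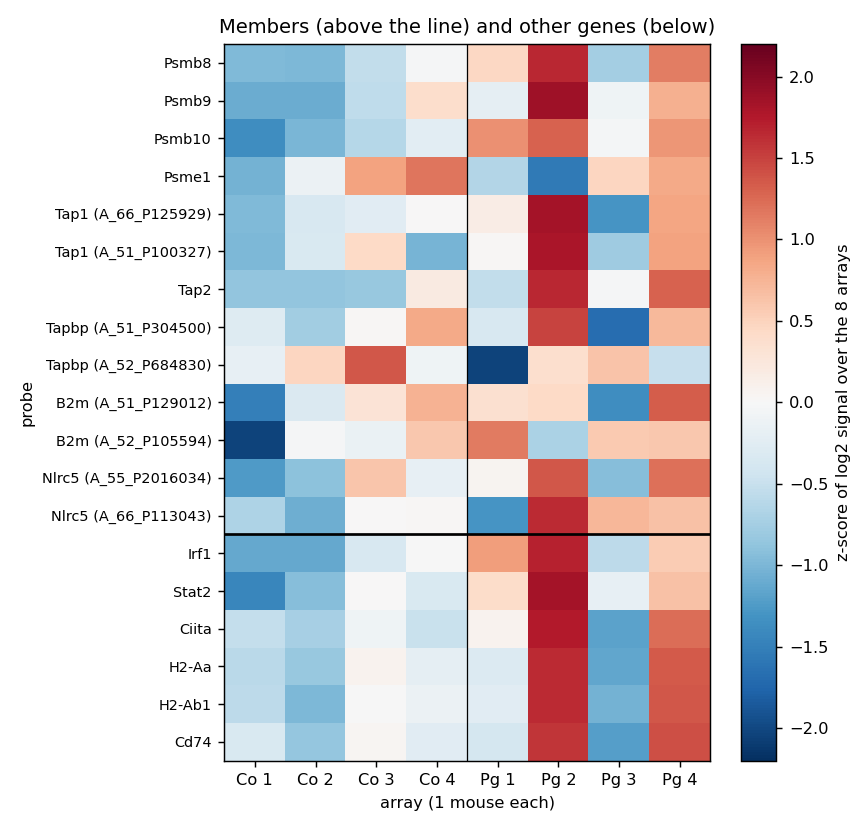
Log2 signal as a z-score over the 8 arrays (color) for the 13 tested member probes above the horizontal line and for 6 other genes below it, with 1 column per mouse. The 6 genes (*Irf1*, *Stat2*, *Ciita*, *H2-Aa*, *H2-Ab1* and *Cd74*) were picked by hand and do not stand for their lists. *Irf2*, of the same list as *Irf1*, has Pg 2 as its lowest array. Pg 2 and Pg 4 are the high columns for most members and for the MHC class II genes, and Pg 3 resembles the Co mice.

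The genes that control the pathway were described from a list of 26, of which 24 were tested. Fitted values were above 0 for 11 of them and below 0 for 13, their median was -0.03, and none was called. At an unadjusted p under 0.05 in limma, 4 were higher and 3 lower (background 22.8% of all tested probes in either direction and 6.86% higher in Pg mice). *Rela*, which encodes an NF-kB subunit, rose at q under 0.1: it read 12.36 to 12.50 in the Co mice and 12.53 to 12.86 in the Pg mice (0.29, SE 0.08, limma q = 0.0930). *Nfyb*, which encodes a subunit of the CCAAT-binding factor at MHC promoters, fell, reading 10.03 to 10.16 in the Co mice and 9.54 to 9.83 in the Pg mice (-0.40, SE 0.07, q = 0.0528). Both groups stood apart for these genes, and both stayed under the fold threshold of 1.5.

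The interferon signaling genes of that list did not pass. *Stat2* had a log2 fold change of 0.42 (SE 0.15, limma q = 0.156). *Irf1*, a factor that induces several members, had 0.22 (SE 0.09, q = 0.209). For both genes Pg 2 was the highest array and Pg 3 was the lowest Pg mouse. *Irf2*, which encodes a relative of IRF1 that binds the same elements, had -0.22 (SE 0.09, q = 0.207), with Pg 2 the lowest array. *Ciita*, the class II transactivator, read 5.14 to 5.76 in the Co mice and 5.93, 7.59, 4.69 and 7.08 in Pg 1 to Pg 4 (0.92, SE 0.58, q = 0.382). *Rfx5*, which encodes a DNA-binding partner of both transactivators, had -0.93 (SE 0.47, q = 0.284), with Co 1 at 7.86 and the other Co mice at 5.56 to 6.08.

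The other lists of the pathway had medians near 0. Of 20 tested class I heavy chain genes, 15 were higher and 5 lower with a median of 0.08, and none passed q under 0.1 in limma. An unadjusted p under 0.05 in limma was found for 1 of the 20, beside 22.8% of all tested probes. The classical chains *H2-K1* and *H2-D1* had log2 fold changes of 0.15 (SE 0.18) and 0.07 (SE 0.16), and the largest absolute values of the list were *Cd1d1* at 0.34 (SE 0.27), *H2-Q5* at 0.29 (SE 0.18) and *H2-Q4* at -0.20 (SE 0.09). Many of the *H2* chains are close in sequence, and a probe of one may read another as well. Of 11 core particle subunits shared by both kinds of proteasome, 9 were higher and 2 lower with a median of 0.06, led by *Psma5* at 0.17 (SE 0.08), *Psma4* at 0.15 (SE 0.07) and *Psma7* at 0.14 (SE 0.05). None of these 11 had a q under 0.1, and 2 had an unadjusted p under 0.05 in limma, beside 22.8% of all tested probes.

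Among 7 tested constitutive partners and other activators, 5 were higher and 2 lower (median 0.08), none at q under 0.1. An unadjusted p under 0.05 in limma was given to 2 of the 7 (background 22.8% of all tested probes). *Pomp*, the chaperone that assembles the catalytic subunits, had the largest value at 0.19 (SE 0.07, limma q = 0.154), and it was higher in every Pg mouse than in any Co mouse. *Psme3* and *Psme4*, activators that interferon does not induce, had -0.13 (SE 0.08) and 0.12 (SE 0.05). Of 13 peptide trimming enzymes and loading chaperones, 6 were higher and 7 lower (median -0.00), none at q under 0.1. The unadjusted p of limma was under 0.05 for 6 of the 13, 4 higher and 2 lower (background 22.8% of all tested probes). The largest log2 fold changes of this list were the glycoprotein folding sensor *Uggt1* at 0.26 (SE 0.11), the aminopeptidase *Lnpep* at -0.22 (SE 0.08) and *Blmh*, which encodes a cytosolic aminopeptidase, at 0.20 (SE 0.06). Over all 22323 genes tested, the median was -0.01 and 47.2% were above 0.

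**Figure D5:**
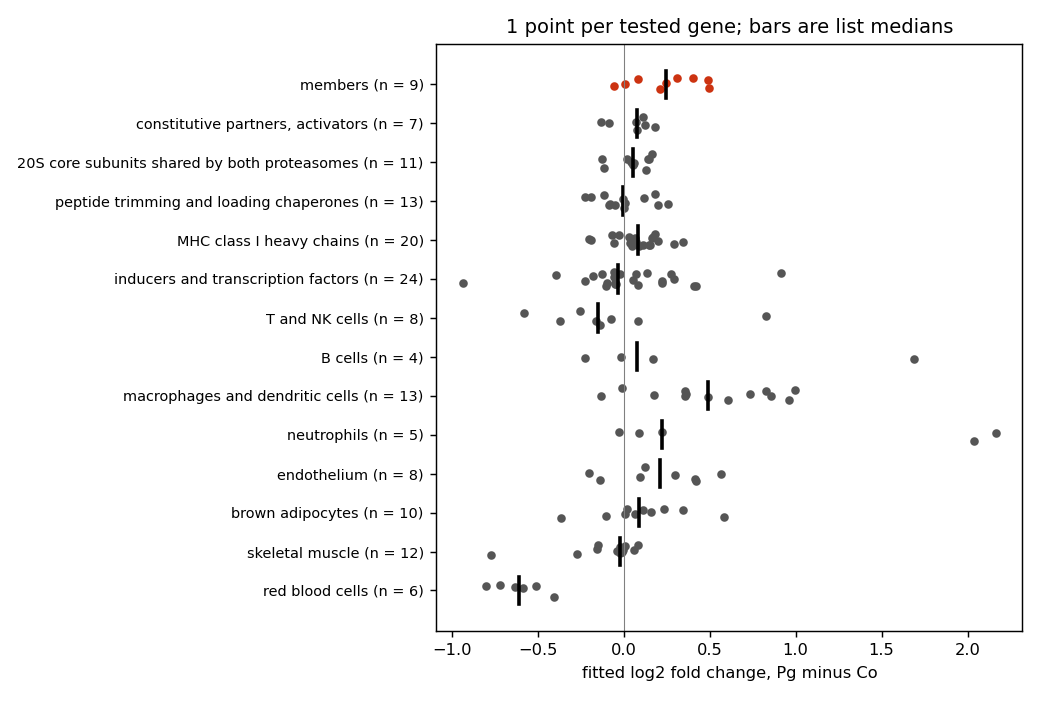
Fitted log2 fold change, Pg minus Co (horizontal axis), of the tested genes of each list, 1 point per gene with bars at the list medians. The members have a median of 0.25, the other lists of the pathway lie between -0.03 and 0.08, and the macrophage and dendritic cell markers reach 0.49.

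The markers of cells that express these genes at high levels moved with the member probes across the Pg mice. The summed signal of 14 macrophage and dendritic cell markers was 10396 to 18010 in Co mice and 9983 to 41320 in Pg mice, sums that carry the weight of a few bright probes. Of these markers 10 were well above background on all 8 arrays, and of 13 tested genes 11 were higher with a median of 0.49 and none with a q or an unadjusted p under the threshold in limma (background 7.82% and 22.8% of all tested probes). *H2-Ab1*, a class II chain of antigen-presenting cells, read 10.95, 13.07, 10.06 and 12.76 in Pg 1 to Pg 4 and 10.12 to 11.22 in the Co mice, so Pg 2 and Pg 4 were high and Pg 3 was below all Co mice. Pg 2 and Pg 4 were likewise the high mice for the members. *Cd14* (0.99, SE 0.83) and *Cd209a* (0.86, SE 0.71) completed the largest values of the list. Their part in the member values was not tested.

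Other leukocyte markers took different patterns. The summed signal of 14 T and NK cell markers was 3320 to 4556 in Co mice and 2854 to 3376 in Pg mice, with *Cd3g*, *Gzmb*, *Ncr1* and *Klrb1c* above background on no array, and 2 of 8 tested genes were higher (median -0.15). The bright *Cd247* probe weighs heavily in that sum, at 10.46 to 11.29 in Co mice and 10.09 to 10.44 in Pg mice on the log2 scale. The largest changes were *Klrk1* (0.83, SE 1.15), *Cd247* (-0.58, SE 0.20) and *Gzma* (-0.37, SE 0.19), none at q under 0.1 and 1 of the 8 at an unadjusted p under 0.05 in limma (background 22.8% of all tested probes). The 6 B cell markers summed to 198 to 217 in Co mice and 222 to 522 in Pg mice, with *Blk* above background on no array, 2 of 4 tested genes higher, and *Cd79b*, a part of the B cell receptor, called (1.69, SE 0.44, limma q = 0.0867). That call was lost without normalization between arrays (q = 0.158), without the filter on dim probes (q = 0.142), with the replicate block (q = 0.144) and when any 1 array but Pg 4 was left out (q = 0.112 to 0.169). *Ms4a1* had 0.17 (SE 0.24). The 8 neutrophil markers summed to 1276 to 1345 in Co mice and 1108 to 3291 in Pg mice, with *Ngp* above background on no array and 4 of 5 tested genes higher. *S100a8* read 8.59, 8.32, 5.18 and 6.76 in Pg 1 to Pg 4 and 4.56 to 5.33 in Co mice (2.16, SE 0.71, q = 0.132), so Pg 1 was high for this gene where it was not for most members. *S100a9* (2.04, SE 0.82) and *Mpo* (0.22, SE 0.18) came next.

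Markers of the cells that line vessels did not move one way. The 8 endothelial markers summed to 26883 to 32081 in Co mice and 35986 to 38839 in Pg mice, sums that carry the weight of the bright *Egfl7* probe, with 6 of 8 genes higher and *Kdr* (0.57, SE 0.11, limma q = 0.0573) and *Egfl7* (0.42, SE 0.07, q = 0.0419) at q under 0.1 and below the fold threshold, ahead of *Cldn5* (0.41, SE 0.21). *Pecam1* was lower in every Pg mouse than in any Co mouse (-0.20, SE 0.07, q = 0.151), and *Tek* had -0.14 (SE 0.10, q = 0.441). The brown adipocyte list had 8 of 10 tested genes higher (median 0.09), with *Dio2* at 0.59 (SE 0.19, q = 0.129), *Ppargc1a* at -0.36 (SE 0.25) and *Plin1* at 0.35 (SE 0.40). The muscle list had 3 of 12 higher (median -0.02), with *Myh4* at -0.77 (SE 1.37), *Actn3* at -0.27 (SE 0.80) and *Mb* at -0.15 (SE 0.05). All 6 red blood cell genes were lower (median -0.61), among them *Hbb-b1* at -0.80 (SE 0.48), *Hbb-b2* at -0.72 (SE 0.46) and *Alas2* at -0.63 (SE 0.51), with sums of 227148 to 372078 in Co mice and 107250 to 380011 in Pg mice. None of these adipocyte, muscle or red cell markers had a q under 0.1. An unadjusted p under 0.05 in limma was given to 3 of 10, 2 of 12 and 0 of 6 of them, beside 22.8% of all tested probes.

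Over the 8 arrays, the genes outside these lists whose pattern was most like the mean z-score of the 9 member genes were *4933412E12Rik* (Pearson r = 0.988), *Cd83* (0.986), *Ugt1a6b* (0.980), *Neurl3* (0.979) and *Emb* (0.979). These correlations describe 8 arrays of 2 groups and share the array-to-array differences given above. *Cd83*, a surface protein of mature dendritic cells, read 5.82, 5.92, 6.73 and 6.88 in the Co mice and 6.73, 7.77, 6.16 and 7.38 in the Pg mice. It was high in Pg 2 and Pg 4, and its log2 fold change of 0.67 (SE 0.39, limma q = 0.347) did not pass.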

How the data were processed

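By the labels, total RNA (200 ng) was labelled with Cy3, and the authors read the arrays with Agilent Feature Extraction 11.0.1.1, named in the submitters' notes. The deposited scanner output gives for each spot the processed intensity, background-subtracted and detrended, beside the mean and median intensity, the local background and marks for outliers, saturation and signal well above background. The authors also deposited a table of quantile-normalized log2 values, used here as an alternative. Its columns of fold changes, p-values and scores hold the authors' own comparison and were not used.

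The processed intensities of a probe's spots were averaged without population outliers, quantile-normalized over 8 arrays, set to at least 1 and put on the log2 scale in R 4.3.3 (data.table, version 1.17.8). Probes well above background on at least 4 arrays (33819 of 56605) went into the two-sided moderated test of limma 3.58.1 (lmFit, eBayes), and p-values were adjusted by Benjamini-Hochberg over all of them. The thresholds followed the methods of the study, q under 0.1 and a fold change above 1.5. The brightest tested probe stood for a gene in lists. Sums of markers are of the normalized signal on a linear scale over the brightest probe of each gene. The fit was tested on simulated data. Precision is limited by the number of arrays, and p-values measure the spread between these arrays, each of 1 mouse.

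The members and lists were chosen with earlier results of these data known. Named were the members, their 3 catalytic partners, in each pathway list the genes with q under 0.1 and the 3 largest changes, in each marker list the markers above background on no array and the 3 largest changes, and the 5 genes nearest the members' pattern. *H2-K1*, *H2-D1*, *H2-Aa*, *Cd74*, *Irf1*, *Irf2*, *Pecam1*, *Tek* and *Tnnt3* were outside this rule and were named after their values were seen. Some genes that the rule names are not reported here. Alternatives were other background corrections, other normalizations, other filters, the authors' table, an intensity trend, the replicate number as a block and each array left out.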

Additional observations from a re-analysis of the deposited data

Results flagged for a closer look

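In 32 groups of 4 arrays, taken over the member probes and their partners, 1 group held an array far from the rest. *Tap2* probe A_55_P2017645 read 10.46 in Co 4, while the other 3 Co mice read 10.24 to 10.25, a gap of 0.968 of the range against a critical value of 0.829. Chance alone marks about 1 group in 20. The cause was not tested.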

How the results depend on the processing

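No member probe was called under any of the alternatives run. The number with a q under 0.1 in limma was 1 with normexp on the mean signal, 1 with the median signal without background subtraction, 1 with the filter at all 8 arrays and 1 with an intensity trend, in each case *Psmb10* (q = 0.0873, 0.0899, 0.0904 and 0.0586), and 0 to 2 with 1 array left out, 2 without Pg 3 (*Psmb8*, q = 0.0771, and *Psmb10*, q = 0.0911). The number with an unadjusted p under 0.05, a rule added after seeing the data, was 4 without normalization between arrays (beside 15.2% of all probes), 4 with an intensity trend (23.7%) and 1 to 6 of 13 with 1 array left out (6 without Pg 3, beside 23.2%, 4 without Co 4, beside 20.5%, and 4 without Pg 1, beside 19.7%). Called marker genes numbered 1, against 0 without normalization, 3 with an intensity trend, 0 with the replicate block and 0 to 4 with 1 array left out (4 without Pg 3), and called pathway genes 0 to 1 (1 without Pg 3). *Psme1* turned from -0.06 to 0.00815 under normexp, 0.0148 with the median signal and 0.00559 in the authors' table. *Tapbp* A_51_P304500 turned from 0.01 to -0.0197 with 75th percentile scaling, and lay between -0.0456 and 0.0768 with 1 array left out, below 0 without Co 2, Pg 2 or Pg 4. *B2m* A_51_P129012 lay between -0.0115 and 0.195 with 1 array left out, below 0 without Co 1. The cause of these shifts was not tested. The other 222 values of single probes kept their sign and their side of the joint threshold on q and fold change. The member median was 0.16 to 0.39 over the other settings and 0.19 to 0.34 with 1 array left out.

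Without normalization the median of all probes was 0.03 in place of -0.04 and 56.0% were above 0 in place of 42.3%, while 11 of 13 member probes stayed positive. Probes called over the whole array numbered 546, and 94 with normexp, 108 with the median signal, 283 with 75th percentile scaling, 27 without normalization, 318 with the filter at all 8 arrays, 106 in the authors' table, and 3 (without Co 3) to 697 (without Pg 3) with 1 array left out. With the replicate number as a block the count was 0, and 0 members were called as before. Arrays of the same number share a column of the slide. Their deviations from the group means had correlations of 0.06, -0.03, -0.07 and 0.18. Arrays of different numbers were not compared in this way, so whether the numbers pair mice was not tested. In that block the exact p was 0.375 for *Psmb8* minus *Psmb5*, 0.125 for *Psmb9* minus *Psmb6* and 0.125 for *Psmb10* minus *Psmb7*, where 0.125 is the smallest possible. *Psmb9* minus *Psmb6* was 0.23 with the other *Psmb6* probe, an alternative added after seeing the data, and was not run on the authors' table. With 4 arrays per group, wide intervals such as those of *Nlrc5* limit what could be detected.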
